A study of Mus musculus with 3 samples.

Results

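Integrins and laminins are described here across the cell classes of the mouse heart after infarction. Integrins are cell-surface receptors made of an alpha and a beta chain, which tie the cytoskeleton to the matrix outside the cell or to other cells. Laminins are cross-shaped proteins of an alpha, a beta and a gamma chain, which form the sheet of basement membrane around each cardiomyocyte and under the vessel lining, and several integrins and dystroglycan hold cells to them. The members were chosen by name from the feature list: 36 of its 32285 genes, of which 26 encode integrin chains and 10 encode laminin chains. All 36 were found in the feature list and in the GENCODE vM21 annotation of mm10.

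Nuclei came from mouse hearts collected 2 weeks after surgery, and RNA of single nuclei was counted as unique molecular identifiers (UMIs), 1 for each captured RNA molecule. There were 3 libraries, 1 for each group: myocardial infarction with dapagliflozin (MI-DAPA), myocardial infarction with NS (MI-NS) and sham surgery with NS (Sham-NS). Dapagliflozin inhibits the kidney glucose cotransporter SGLT2, and the labels leave NS unexpanded. Strain, age, sex, dose and the number of hearts behind a library are not given in the labels. With 1 library for each group no difference below has a replicate check, and no test was possible. Brackets hold 95% intervals, which cover counting error only.

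The libraries held 8871086 UMIs in 6354 barcodes (MI-DAPA), 10113430 in 7725 (MI-NS) and 13873275 in 9744 (Sham-NS), and 5372, 7065 and 8296 nuclei were kept. Median depth per kept nucleus was 831, 851 and 790 UMIs, and the median mitochondrial share, a sign of RNA from outside the nucleus, was 2.42%, 1.48% and 3.32%. Pairs of libraries shared 13 to 20 cell barcodes. Clusters of likely doublets held 10.1% of MI-DAPA, 9.98% of MI-NS and 15.1% of Sham-NS nuclei and were left out. The members took no part in the clustering, and 12 classes were named from marker genes and are written as "-like". The deepest 5 classes (fibroblast-, cardiomyocyte-, vascular endothelial-, macrophage- and pericyte-like) had at least 100000 UMIs in every library. Mesothelial-like nuclei numbered 18, 465 and 14 and adipocyte-like nuclei 1, 86 and 2 in MI-DAPA, MI-NS and Sham-NS, so these classes may stand for the MI-NS library rather than for a type shared by all.

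Levels are given as CPM, the UMIs of a gene scaled to a common total of UMIs of its class in that library. A class was said to hold a gene in a library with at least 10 UMIs, at least 20 CPM and at least 0.5 times the level of all kept nuclei, as a guard against free RNA, which gives every class a like low level. By this rule 31 members were held in at least 1 class. The other 5 were not: Lama1 had 3 UMIs in all 3 libraries together, Itgad 3, Itgae 19, Lamc3 32 and Itga2 62. Lama1 is the alpha chain of an embryonic laminin, Itga2 is a collagen receptor chain of platelets and epithelia, and Itgae is a chain of tissue T cells.

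Upstream sequences are shown for Itga11, Itgb5 and Lama2, picked from the fibroblast-like comparison. The RefSeq promoter table (GRCm38.p6) has an entry for 23 of the 36 members. Others of that comparison with an entry, Itga1 and Itgb8 among them, are not shown. Itga11 and Itgb5 stood higher in the infarcted libraries, and Lama2 stood lower in MI-NS. The windows run 5′ to 3′ on the gene's strand, upstream of the start in the RefSeq table, at chr9:62677605-62677825 (+) for Itga11, chr16:33829415-33829664 (+) for Itgb5 and chr10:27616943-27617192 (-) for Lama2. The Lama2 window lies inside the longer gene that GENCODE annotates, downstream of its start there. Capitals mark matches to the GC box, spelled GGGCGG, on either strand.
Itga11: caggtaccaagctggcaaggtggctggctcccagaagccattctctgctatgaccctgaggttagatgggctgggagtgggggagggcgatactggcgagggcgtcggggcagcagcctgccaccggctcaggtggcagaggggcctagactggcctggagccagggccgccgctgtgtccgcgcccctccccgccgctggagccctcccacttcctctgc
Itgb5: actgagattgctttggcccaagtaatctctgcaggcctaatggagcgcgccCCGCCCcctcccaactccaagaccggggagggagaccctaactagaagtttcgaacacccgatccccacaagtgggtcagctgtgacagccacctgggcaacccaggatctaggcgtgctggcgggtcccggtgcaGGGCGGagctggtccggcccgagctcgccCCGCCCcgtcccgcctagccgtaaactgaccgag
Lama2: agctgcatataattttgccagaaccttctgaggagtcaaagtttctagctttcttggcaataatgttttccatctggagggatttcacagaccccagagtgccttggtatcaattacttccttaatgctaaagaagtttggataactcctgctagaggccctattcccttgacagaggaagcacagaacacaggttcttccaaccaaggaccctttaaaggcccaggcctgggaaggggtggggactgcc
GC content was 69.2% in the Itga11 window, 65.2% in that of Itgb5 and 47.2% in that of Lama2. The Itgb5 window held 3 GC boxes, and the windows of Itga11 and Lama2 held none. Over all 32851 windows of 250 bases in the table, 32.7% held a GC box, as did 9 of the 26 windows of members. The AP-1 motif TGANTCA was in 6.75% of all windows, the TEAD motif GGAATG in 12.6% and the TATA box TATAAA in 12.4%, and none of these letters occurred in the Itga11, Itgb5 or Lama2 windows. A match is a run of letters and not a site of binding.

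Levels of the chains differed between classes. Of the 36 members, 30 had at least 50 UMIs over the deepest 5 classes, and for 23 of these 1 class had the highest level in all 3 libraries. That class was macrophage-like for 7 members (Itga4, Itga9, Itgal, Itgam, Itgax, Itgb2 and Itgb7), cardiomyocyte-like for 5 (Itga3, Itgb6, Lama5, Lamb2 and Lamb3), vascular endothelial-like for 4 (Itga6, Itgb4, Lama3 and Lama4), pericyte-like for 4 (Itga1, Itga7, Itga8 and Itgb1) and fibroblast-like for 3 (Itga11, Itgb8 and Lamc1). Some leads were narrow: in Sham-NS Lamb2 was at 745 CPM beside 722 in the next class, and Itgb4 at 6.06 beside 5.82. In MI-NS Itga9 was at 47.3 CPM beside 44.2. Classes outside these 5 were not ranked. Several of these members had higher levels in some of them, Itgal, Itgb7, Itga9, Itga8 and Lama4 among them. The share of all genes with 1 top class in every library was not computed. The remaining 7 members changed their highest class between libraries. For Itga2b, which stayed at or below 16.6 CPM in these classes, the order has little depth behind it. For Lama2, Lamb1, Itga5, Itga10, Itgav and Itgb5 the classes at the top lay near each other in at least 1 library.

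**Figure D1:**
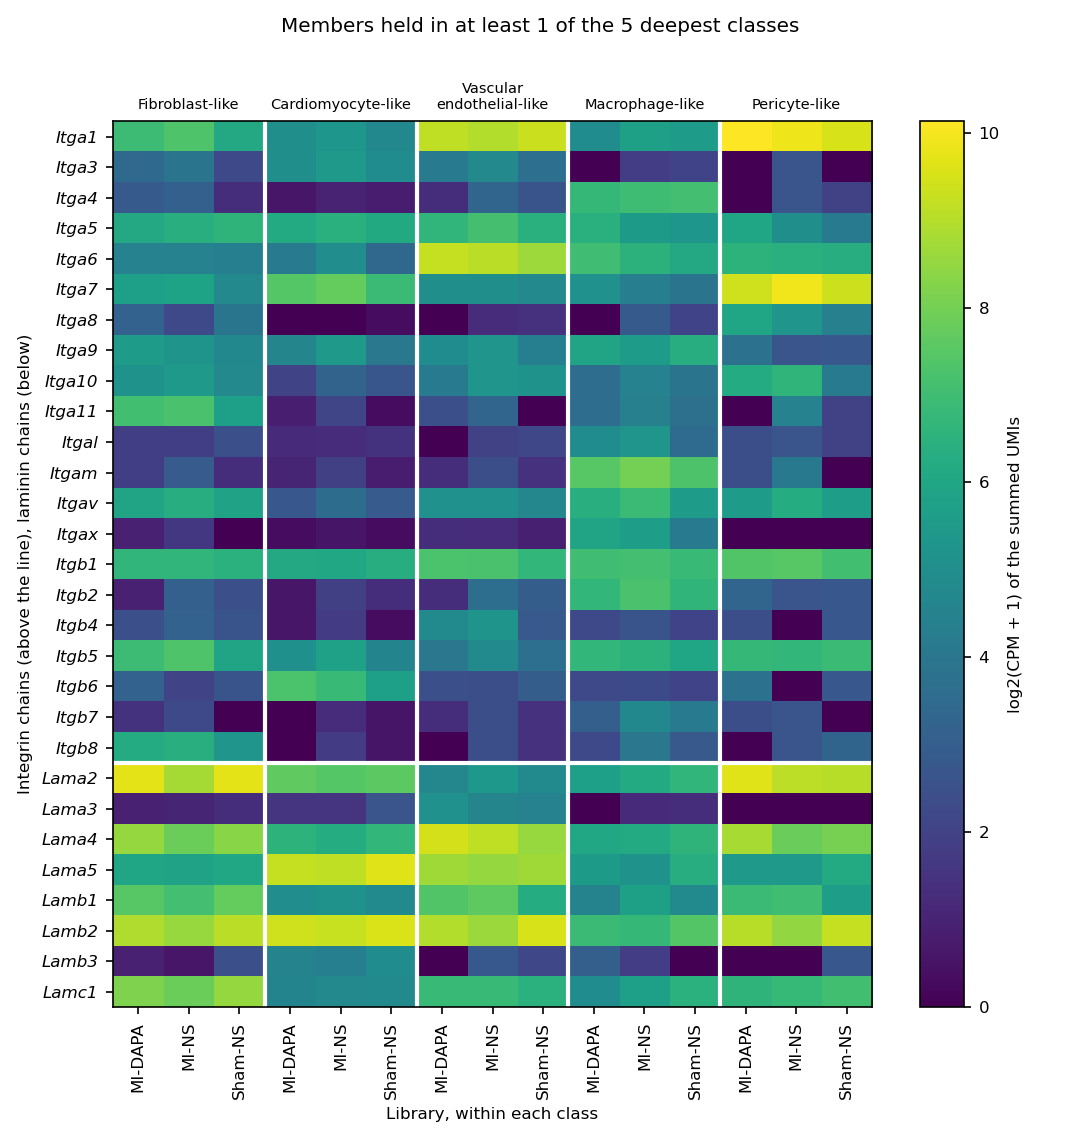
Level of each member held in at least 1 of the 5 deepest classes, as log2(CPM + 1) of the UMIs summed over the nuclei of a class (columns: MI-DAPA, MI-NS and Sham-NS within each class; rows: integrin chains above the white line, laminin chains below). Compare colours along a row, since levels of different genes also depend on gene length; Itgb6 is bright only in the cardiomyocyte-like columns, and Itgam, Itgb2 and Itgax only in the macrophage-like columns.

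Itgb1, the beta chain shared by most matrix-binding integrins, was the most widely held integrin chain, in 10 of the 12 classes. Its level in pericyte-like nuclei was 166 CPM in MI-DAPA, 178 in MI-NS and 134 in Sham-NS, and in cardiomyocyte-like nuclei it was 68.3, 65.4 and 77.8 CPM in the same libraries. The laminin chains Lamb2, Lama4 and Lamc1 were also held in 10 classes each. Lamb2, the beta chain of mature muscle and vessel laminins, was at 674 CPM in MI-DAPA, 619 in MI-NS and 745 in Sham-NS cardiomyocyte-like nuclei. Itgb6, a beta chain better known from epithelia, where with Itgav it activates latent TGF-beta, was held only in cardiomyocyte-like nuclei, at 154, 112 and 51.9 CPM; in the other 4 deep classes it was at or below 13.1 CPM in MI-DAPA, 4.40 in MI-NS and 6.93 in Sham-NS.

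Laminins are secreted as trimers of an alpha, a beta and a gamma chain, so the chains were also read together. Lama2, with Lamb1 or Lamb2 and with Lamc1, makes the laminins around muscle cells. All of these chains were held by fibroblast- and pericyte-like nuclei in every library, and in MI-NS and Sham-NS also by endocardial-like nuclei. In MI-NS mesothelial- and T cell-like nuclei held them too. Lama4 with the same beta and gamma chains makes laminins of vessels. All of these were held by fibroblast-, pericyte- and vascular endothelial-like nuclei in every library, and by endocardial-like nuclei in MI-NS and Sham-NS. In MI-NS adipocyte-, lymphatic endothelial-, mesothelial- and T cell-like nuclei held them too. The part of free RNA in the laminin chains of T cell-like nuclei was not tested. Lama5 and the same partners were all held by vascular endothelial-like nuclei in every library, and by endocardial-like nuclei in MI-NS only. The trimer of Lama1, Lamb1 and Lamc1 was complete in no class. Cardiomyocyte-like nuclei held Lama2, Lama5 and Lamb2 in every library but Lamc1 and Lamb1 in none, so by this rule they held no complete trimer. Lamc1 was at 22.6 CPM in MI-DAPA, 25.9 in MI-NS and 26.7 in Sham-NS cardiomyocyte-like nuclei, and in fibroblast-like nuclei at 287, 227 and 365 CPM in the same libraries.

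In fibroblast-like nuclei, integrin chains that bind collagen, vitronectin and latent TGF-beta stood above Sham-NS in the MI-NS library, and every laminin chain with enough UMIs stood below it. The integrins Itga11, Itgb5, Itga1 and Itgb8 were 2.10 to 2.87 times as high in MI-NS. The laminin Lama2 was at 438 CPM in MI-NS and 844 CPM in Sham-NS. In MI-DAPA those integrins were below their MI-NS levels by less than 2-fold, while Lama2 was at 849 CPM. This class comprised 1358 nuclei in MI-DAPA, 2092 in MI-NS and 1764 in Sham-NS, and it is the class that makes most scar matrix.

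Itga11 pairs with Itgb1 as a receptor for fibrillar collagen and is a chain of activated fibroblasts; the gene lies at chr9:62677826-62783982 on the + strand. Itga11 had 147 UMIs or 132 CPM (112 to 156) in MI-DAPA, 279 UMIs or 150 CPM (133 to 168) in MI-NS and 69 UMIs or 51.9 CPM (40.3 to 65.6) in Sham-NS. Both infarcted libraries stood above the sham library with intervals that did not overlap it. The log2 ratio was 1.52 (1.14 to 1.93) for MI-NS against Sham-NS, -0.18 (-0.48 to 0.12) for MI-DAPA against MI-NS and 1.35 (0.93 to 1.79) for MI-DAPA against Sham-NS.

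Itga1, the alpha chain of a collagen IV and collagen I receptor, was at 122 CPM (103 to 145) in MI-DAPA, 161 (144 to 181) in MI-NS, against 68.4 (55.1 to 84.0) in Sham-NS. Itgb5, the beta chain that with Itgav binds vitronectin and periostin (chr16:33829665-33949338, + strand), was at 122 CPM (103 to 145) in MI-DAPA, 163 (145 to 182) in MI-NS, against 60.1 (47.7 to 74.8) in Sham-NS. Itgb8, which with Itgav frees TGF-beta from its latent complex, was at 73.8 CPM (58.7 to 91.6), 81.0 (68.6 to 95) and 38.3 (28.5 to 50.4) in the same libraries. All were lowest in Sham-NS. For MI-NS against Sham-NS the log2 ratio was 1.43 for Itgb5, 1.23 for Itga1 and 1.07 for Itgb8. Between MI-DAPA and MI-NS it was -0.41 (-0.71 to -0.11) for Itgb5, -0.40 (-0.70 to -0.10) for Itga1 and -0.13 (-0.54 to 0.26) for Itgb8. Itga1 has the gene Pelo inside it on the same strand, so that reads could be shared between them.

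The other integrins of fibroblast-like nuclei differed less between libraries. Itgav, the alpha chain of the vitronectin receptors, was at 59.4 CPM in MI-DAPA, 78.9 in MI-NS and 55.6 in Sham-NS. Itga5, the fibronectin receptor chain, was at 68.4, 81.5 and 94.7 CPM. It was the 1 integrin chain below 0 for MI-NS against Sham-NS, at a log2 ratio of -0.22 (-0.57 to 0.14). Under alternatives Itgb1 was below 0 too, at -0.59 in nuclei thinned to 1000 UMIs. So was Itga9, at -0.03 without the cluster led by Vcan. Itga9, a receptor chain for tenascin C, was at 47.7, 37.0 and 25.6 CPM. Itga10, a collagen receptor chain, was at 36, 41.8 and 26.3 CPM and Itgb1 at 102, 99.3 and 88.7 CPM. For these the intervals of at least 2 libraries overlapped.

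The laminin chains were lowest in MI-NS. Lama2, the alpha chain of muscle laminin, whose loss causes a congenital muscular dystrophy (chr10:26980036-27619758, - strand), had 943 UMIs or 849 CPM (796 to 905) in MI-DAPA, 816 UMIs or 438 CPM (408 to 469) in MI-NS and 1123 UMIs or 844 CPM (795 to 895) in Sham-NS. MI-DAPA and Sham-NS overlapped, and MI-NS lay below both. The log2 ratio was -0.95 (-1.08 to -0.82) for MI-NS against Sham-NS, 0.96 (0.82 to 1.09) for MI-DAPA against MI-NS and 0.01 (-0.12 to 0.13) for MI-DAPA against Sham-NS. Lama4, the alpha chain of vessel laminin, was at 371 CPM (336 to 409) in MI-DAPA, 233 in MI-NS, against 325 (295 to 357) in Sham-NS.

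The beta and gamma chains that build trimers with them followed. Lamb1 was at 182 CPM (158 to 209) in MI-DAPA, 136 (120 to 154) in MI-NS, against 210 (186 to 236) in Sham-NS, Lamb2 at 480 (440 to 522), 382 and 548 (509 to 589) CPM, and Lamc1 at 287 (257 to 321), 227 (206 to 250) and 365 (333 to 399) CPM. For all of them MI-NS was the lowest library and its interval lay below those of both other libraries. The log2 ratio for MI-NS against Sham-NS was -0.63 for Lamb1, -0.52 for Lamb2 and -0.68 for Lamc1, and that for MI-DAPA against MI-NS was 0.42, 0.33 and 0.34. The sign of this contrast turned for Lamc1 without the Vcan-led cluster, at -0.08, and for Lamb1 in nuclei thinned to 1000 UMIs, at -0.12. The contrasts share the MI-NS library, so a low value there appears in both.

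**Figure D2:**
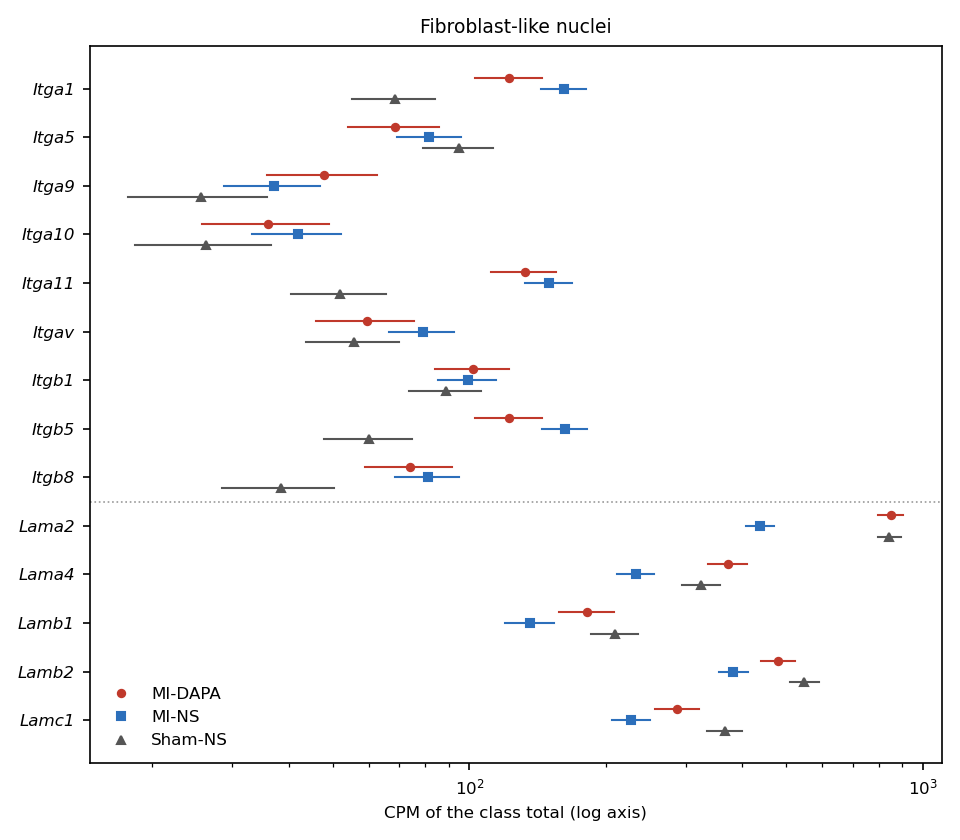
Level of the members in fibroblast-like nuclei (x axis: CPM of the class total, log axis; points: 1 library each, MI-DAPA, MI-NS and Sham-NS; lines: exact Poisson 95% intervals, counting error only). Itga1, Itga11, Itgb5 and Itgb8 in Sham-NS lie left of both infarcted libraries, and for all laminin chains the MI-NS point is the leftmost.

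Of the 36 members, 17 had at least 50 UMIs over MI-NS and Sham-NS in fibroblast-like nuclei. Of these, 5 were at least 2-fold higher in MI-NS (Itga11, Itgb5, Itga1, Itgb8 and Itga7), beside 9.16% of all 8525 genes so measured, and 0 were at least 2-fold lower, beside 3.96%. Itga7 was not held by the class, nor were Itga6 and Lama5, which are counted among the measurable chains below. A ratio above 0 was found for 10 of the 11 integrin chains, with a median of 0.66, and for 0 of the 6 laminin chains, with a median of -0.57, beside 58.6% of all genes and their median of 0.12. Under the alternatives given above, Itgb1 and Itga9 also fell below 0. Between MI-DAPA and MI-NS, 0 of 17 members were at least 2-fold higher or lower, beside 1.12% and 3.51% of all genes; the integrin median was -0.18 with 3 of 11 above 0, and the laminin median 0.38 with 6 of 6 above 0 (not all of them under the alternatives that turn Lamc1 and Lamb1), beside 45.5% of all genes above 0 and their median of -0.05. For MI-DAPA against Sham-NS, 2 of 17 (Itga11 and Itgb5) were at least 2-fold higher, beside 4.0%, and 0 lower, beside 2.57%.

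Several of these calls lie near the threshold: with TMM factors 3 members were at least 2-fold higher and 1 lower (Lama2, log2 ratio -1.06) for MI-NS against Sham-NS, and Lama2 was 1.01 for MI-DAPA against MI-NS. In nuclei thinned to 1000 UMIs 2 members were at least 2-fold higher, with Itga1 at 0.95 and Itgb8 at 0.95. Itgb5 for MI-DAPA against MI-NS was at -1.29 there, past 2-fold. Signs of that contrast turned for Itga11, at 0.05 with a stricter filter on nuclei and 0.03 with thinning, and for Itgb8, at 0.08 and 0.20.

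**Figure D3:**
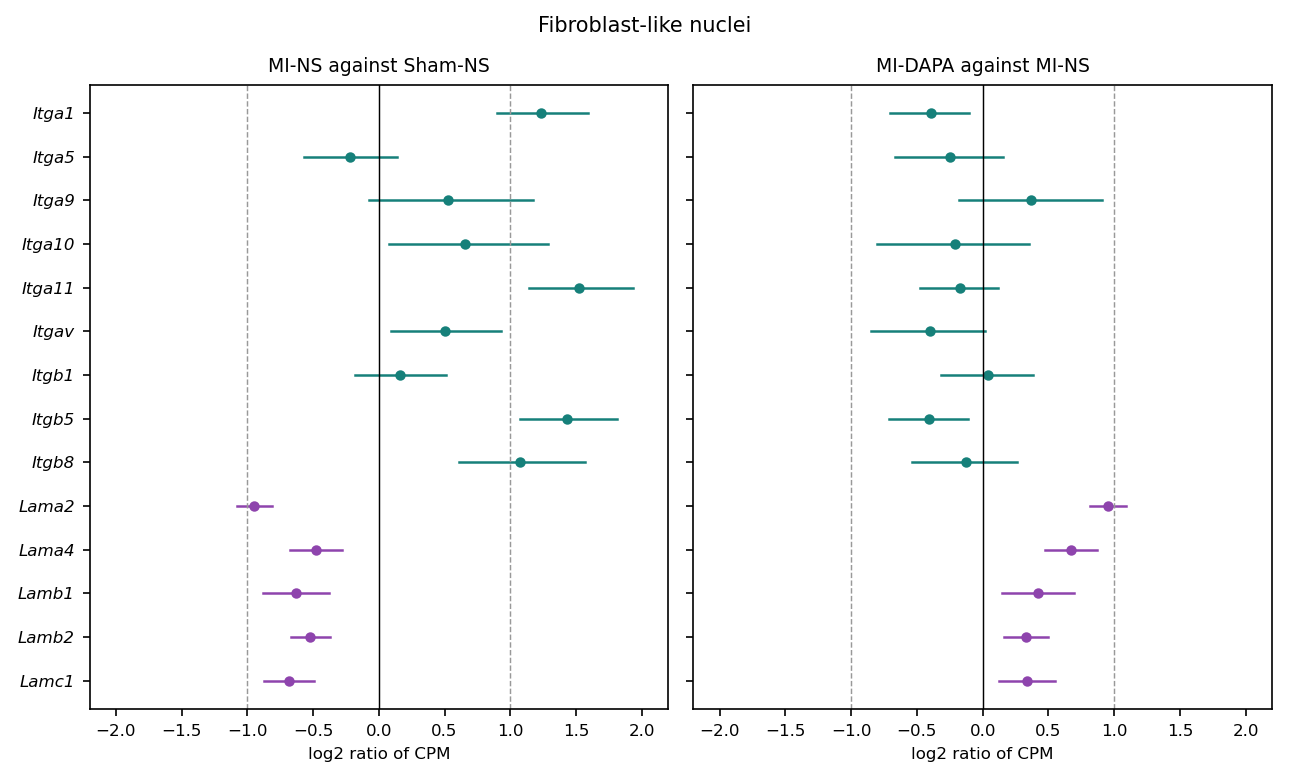
Log2 ratios in fibroblast-like nuclei of members with at least 50 UMIs (x axis: log2 ratio of CPM with 0.5 UMI added; left: MI-NS against Sham-NS; right: MI-DAPA against MI-NS; green: integrin chains; purple: laminin chains; lines: exact conditional binomial 95% intervals; dashed lines: 2-fold). All laminin points lie left of 0 in the left panel and right of 0 in the right panel, with Lama2 furthest out, at -0.95 and 0.96. Members that the class did not hold are not drawn, Lama5 among them. Lama5 was at -0.23 and 0.10, with intervals that crossed 0 in both contrasts.

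Different clusters made up the fibroblast-like class in the libraries. A cluster led by Comp and Ltbp2 held 499 nuclei of MI-DAPA, 1359 of MI-NS and 11 of Sham-NS, and another, with Dpep1 and Abca8a as leading genes, held 185, 37 and 1505. A cluster led by Vcan and Pi16 held 668, 660 and 246 and was the main cluster present in all. Beside this, the summed level of 7 smooth muscle markers in fibroblast-like nuclei was 86.4 CPM in MI-DAPA (6 of 7 with a UMI), 337 in MI-NS (7 of 7) and 57.9 in Sham-NS (6 of 7; Cnn1 at 0 in MI-DAPA and Sham-NS), and that of 10 cardiomyocyte markers was 4937, 2876 and 5526 CPM. The part of these in the class values was not tested.

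Within the Comp-led cluster Itga11 was at 209 CPM (168 to 257) in MI-DAPA and 181 (158 to 206) in MI-NS. Within the Vcan-led cluster Itga11 was at 85.6 CPM (62.7 to 114), 92.8 (69.3 to 122) and 61.6 (31.8 to 108) in MI-DAPA, MI-NS and Sham-NS, so there the libraries overlapped. Within the Dpep1-led cluster it was at 68.2 CPM (31.2 to 129) in MI-DAPA and 49.8 (37.6 to 64.7) in Sham-NS. Itga11 thus differed more between the Comp-led cluster and the others than between libraries within a cluster. Itgb8 in the Vcan-led cluster was at 63.3 CPM, 60.7 and 66.8 in the same libraries. Itga1 in that cluster was at 100 CPM (75.5 to 131) in MI-DAPA, 143 (113 to 178) in MI-NS, against 61.6 (31.8 to 108) in Sham-NS, so MI-NS stayed above Sham-NS.

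Among laminins, Lama2 differed between the infarcted libraries within clusters too. In the Comp-led cluster it was at 581 CPM (512 to 657) in MI-DAPA and 312 (282 to 345) in MI-NS. In the Vcan-led cluster it was at 992 CPM (909 to 1080) in MI-DAPA, 707 (639 to 780) in MI-NS, against 673 (562 to 798) in Sham-NS, so MI-DAPA lay above both others and MI-NS overlapped Sham-NS. Lama4 in the Vcan-led cluster was at 471 CPM (415 to 532) in MI-DAPA, 316 (271 to 366) in MI-NS, against 303 (231 to 391) in Sham-NS. Lamb1 and Lamc1 were low in the Comp-led cluster: Lamb1 was at 43.6 CPM in MI-DAPA and 85.3 in MI-NS there, against 247 and 246 in the Vcan-led cluster, and Lamc1 at 113 and 154 against 434 and 387. Without the Vcan-led cluster, 3 members were at least 2-fold lower in MI-NS than in Sham-NS (Lama2 at -1.44, Lamb1 at -1.34 and Lamc1 at -1.17), and between MI-DAPA and MI-NS Lama2 was 1.15 and Lamc1 -0.08.

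**Figure D4:**
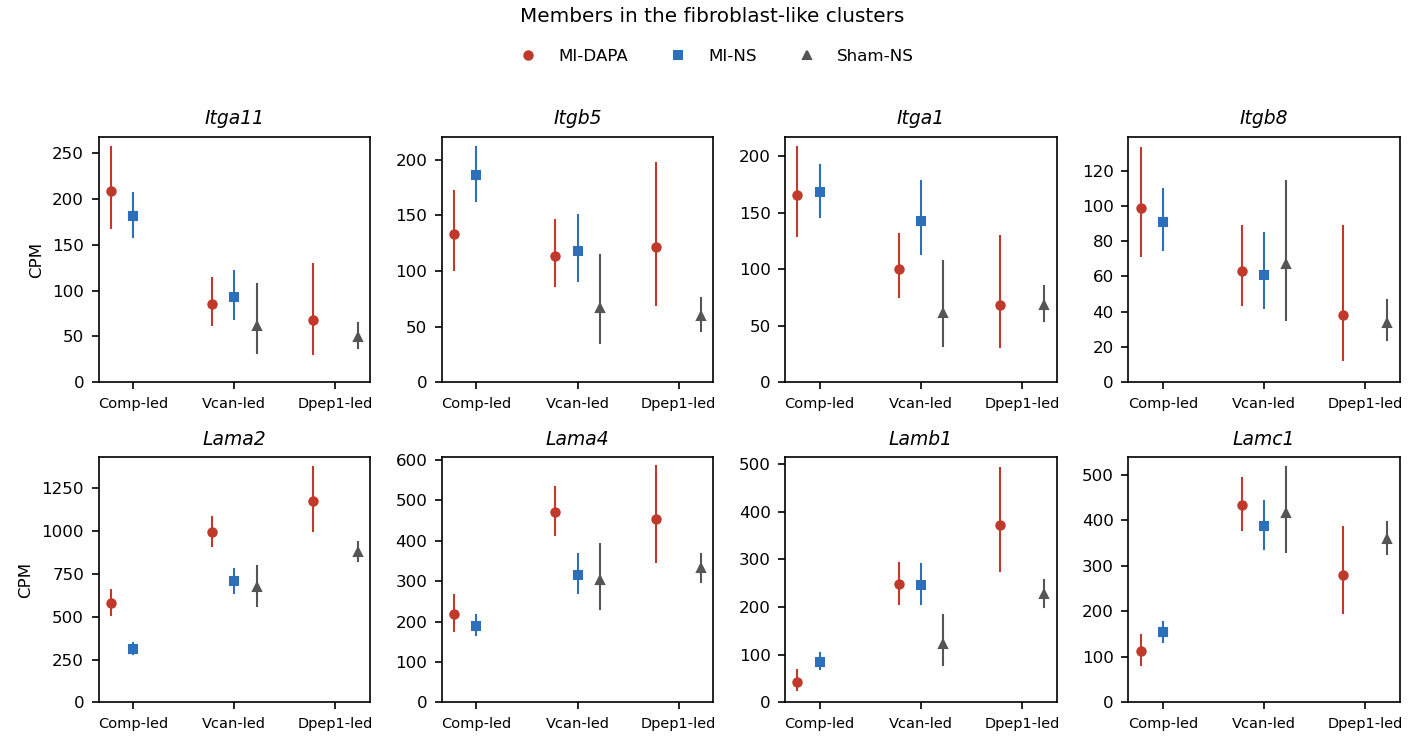
Level of 8 members in 3 fibroblast-like clusters, named by a leading gene (y axis: CPM of the cluster total in a library; points: MI-DAPA, MI-NS and Sham-NS, left to right; lines: exact Poisson 95% intervals; cluster and library combinations under 50 nuclei are not drawn). Itga11 is highest in the Comp-led cluster, at 209 CPM in MI-DAPA and 181 CPM in MI-NS, and Lamb1 and Lamc1 are lowest there; Lama2 in MI-DAPA lies above the other library or libraries of each cluster.

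The ligands and partners of these chains were read in the same nuclei, from lists of other genes of the system. Of 15 measurable soluble and matrix ligands of integrins, 9 were at least 2-fold higher and 0 lower in MI-NS than in Sham-NS, beside 9.16% and 3.96% of all genes, with a median of 2.14 beside 0.12. Of the ligands, Fn1, the fibronectin bound by Itga5 and Itgav, was at 399 CPM in MI-DAPA, 1135 in MI-NS and 46.6 in Sham-NS. Postn, the periostin of scar fibroblasts, was at 1588, 1732 and 61.6 CPM, and Tnc, the tenascin C bound by Itga9, at 33.3, 60.1 and 1.5 CPM. In MI-DAPA against MI-NS the list had a median of -0.45, beside -0.05 over all genes, with 5 of 15 at least 2-fold lower and 0 higher, beside 3.51% and 1.12%, and Fn1 at -1.51. Of 9 collagen ligands, 5 were at least 2-fold higher and 0 lower for MI-NS against Sham-NS, and 0 in either direction for MI-DAPA against MI-NS, beside the same shares. Col1a1 was at 983 CPM in MI-DAPA, 1800 in MI-NS and 195 in Sham-NS.

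Basement membrane partners of laminin did not share 1 direction in fibroblast-like nuclei: of 12 measurable genes 2 were at least 2-fold higher and 2 lower in MI-NS than in Sham-NS, beside 9.16% and 3.96% of all genes. The lower ones were the nidogens, which join laminin to collagen IV. Nid1 was at 126 CPM in MI-DAPA, 115 in MI-NS and 273 in Sham-NS, and Nid2 at 46.8, 31.7 and 85.7 CPM. The higher ones were Sparc, a matrix protein that binds collagen, at 178, 284 and 88.7 CPM, and Col4a2, with a log2 ratio of 1.48. Of 24 adaptors of integrin signalling 4 were at least 2-fold higher and 2 lower, beside the same shares, with a median of 0.30 beside 0.12 over all genes. Among them Actn1, an actin crosslinker of focal adhesions, had a log2 ratio of 4.15 and Lims2, a partner of integrin-linked kinase, -2.28. Against MI-NS, MI-DAPA had Actn1 at -0.93 and Lims2 at 1.64.

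In cardiomyocyte-like nuclei several receptor chains stood higher in MI-NS and most laminin chains lower. Itgb6, Itgb5 and Itga9 exceeded their Sham-NS levels at least 2-fold in MI-NS, and Itga7, the laminin receptor chain of muscle, was at 210 CPM in MI-NS and 118 in Sham-NS. Lama5 was at 571 CPM in MI-NS and 798 in Sham-NS. In MI-DAPA Itgb6 was higher still, and Itgb5 and Itga9 lay between the other libraries. The class comprised 1434, 962 and 1594 nuclei in MI-DAPA, MI-NS and Sham-NS, and different clusters held most of it. A cluster led by Ces1d and Cpeb3 held 876, 400 and 1509 of these nuclei, and a cluster led by Myh7, Ankrd1 and Nppb held 558, 562 and 85. The part of this in the class values was not tested, and levels within the clusters are given beside them.

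Itgb6 (chr2:60598292-60722643, - strand) had 564 UMIs or 154 CPM (141 to 167) in MI-DAPA, 237 UMIs or 112 CPM (97.8 to 127) in MI-NS and 206 UMIs or 51.9 CPM (45.0 to 59.4) in Sham-NS, and no pair of libraries overlapped. The log2 ratio was 1.10 (0.83 to 1.38) for MI-NS against Sham-NS, 0.46 (0.24 to 0.69) for MI-DAPA against MI-NS and 1.56 (1.33 to 1.80) for MI-DAPA against Sham-NS. The order was the same within both clusters of the class. In the larger one it was at 144 CPM (127 to 163), 116 (91.7 to 146) and 49.0 (42.1 to 56.7), and in the one led by Myh7, Ankrd1 and Nppb, genes of the stressed heart muscle, at 163 (145 to 182), 109 (93.1 to 128) and 89.1 (57.6 to 131). In the first of these MI-DAPA and MI-NS overlapped, and in the second MI-NS and Sham-NS did. With TMM factors the log2 ratio for MI-NS against Sham-NS was 0.87, under 2-fold.

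Itga7, which with Itgb1 binds Lama2 laminins, was at 174 CPM (161 to 188) in MI-DAPA, 210 (191 to 230) in MI-NS, against 118 (108 to 129) in Sham-NS, and no pair of libraries overlapped. The difference between the infarcted libraries depended on scaling. With TMM factors the log2 ratio of Itga7 was -0.02 for MI-DAPA against MI-NS and 0.60 for MI-NS against Sham-NS. In the Myh7-led cluster Itga7 was at 187 CPM in MI-DAPA, 224 in MI-NS, against 67.7 (40.8 to 106) in Sham-NS, the last from 19 UMIs. Its beta chain Itgb1 was at 68.3 (60.2 to 77.3), 65.4 (55 to 77.3) and 77.8 (69.4 to 87) CPM in these libraries, with intervals that overlapped, and Itgb1bp2, the muscle protein melusin that binds the tail of Itgb1, was at 538 CPM in MI-DAPA, 445 in MI-NS and 639 in Sham-NS. Itga3, a laminin receptor chain, was at 31.6, 43.8 and 29.7 CPM in the same libraries and Itga5 at 72.7, 85.2 and 70.2 CPM.

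Itga9 was at 23.4 CPM (18.7 to 28.9) in MI-DAPA, 44.2 (35.8 to 54.1) in MI-NS, against 15.6 (12 to 20) in Sham-NS, and Itgb5 at 33.2 (27.6 to 39.7), 54.6 (45.1 to 65.5) and 22.9 (18.4 to 28.1). Both had their highest level in MI-NS, with an interval above those of the other libraries. For MI-NS against Sham-NS the log2 ratio was 1.5 for Itga9 and 1.25 for Itgb5, and for MI-DAPA against MI-NS -0.92 and -0.72; in nuclei thinned to 1000 UMIs Itga9 was at -1.59 there, past 2-fold. In the Myh7-led cluster Itga9 was at 26.9 CPM (19.9 to 35.4), 48.2 (37.7 to 60.8) and 10.7 (2.2 to 31.2), and in the Ces1d-led cluster at 19.9 (13.9 to 27.5), 35.2 (22.3 to 52.9) and 16 (12.2 to 20.6). Itgb5 was at 34.4 CPM (26.5 to 43.9), 57.1 (45.5 to 70.7) and 39.2 (19.6 to 70.1) in the Myh7-led cluster, where Sham-NS overlapped both infarcted libraries, and at 32 (24.3 to 41.4), 49 (33.5 to 69.2) and 21.7 (17.2 to 27) in the other. Summed markers of other classes in cardiomyocyte-like nuclei had no common order: 11 fibroblast markers were at 118 CPM in MI-DAPA, 359 in MI-NS and 152 in Sham-NS, all of them with a UMI, and 11 endothelial markers at 69.2, 116 and 95.7 CPM. Macrophage markers were at 29.1, 53.7 and 46.8 CPM (11, 11 and 10 of 11 with a UMI) and mesothelial ones at 0.817, 17.9 and 1.26 CPM (2, 8 and 2 of 8), so these sets were highest in MI-NS. Pericyte markers were at 171, 201 and 219 CPM (8, 8 and 9 of 9), smooth muscle markers at 197, 149 and 214 CPM (5, 6 and 6 of 7) and erythroid markers at 9.26, 27.8 and 29.5 CPM (2 of 4 in each), all highest in Sham-NS. Their part in these values was not tested; for Itgb6 no other deep class was above 13.1 CPM.

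Among laminins, Lama5, the alpha chain of the widespread adult laminins, was at 602 CPM (577 to 627) in MI-DAPA, 571 (539 to 604) in MI-NS, against 798 (770 to 826) in Sham-NS; the infarcted libraries overlapped and lay below sham. Lama5 in the Myh7-led cluster was at 543, 533 and 574 CPM and in the larger cluster at 662, 657 and 815 CPM. Lamb2 was at 674 CPM (648 to 702), 619 (586 to 653) and 745 (718 to 772). Lama2, which differed by library in fibroblast-like nuclei, was at 198 CPM (184 to 213) in MI-DAPA, 174 (157 to 193) in MI-NS, against 188 (175 to 202) in Sham-NS here, so all libraries overlapped. These overlaps depended on scaling. With TMM factors the log2 ratio of Lama2 was -0.34 for MI-NS against Sham-NS and 0.44 for MI-DAPA against MI-NS. That of Lama5 was -0.72 and 0.33. Lamb3, a beta chain better known from skin, was at 22.3, 19.8 and 29.7 CPM.

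Of the 16 measurable members, 4 were at least 2-fold higher for MI-NS against Sham-NS (Itgb6, Itgb5, Itga9 and Itga6, which the class did not hold), beside 7.38% of all genes, and 0 were lower, beside 2.21%. Integrin chains had a median of 0.83 with 8 of 9 above 0, and laminin chains -0.27 with 1 of 7 above 0, beside a median of 0.13 and 59.9% above 0 over all genes. Between MI-DAPA and MI-NS 0 of 16 were past 2-fold, beside 0.409% higher and 4.57% lower. Of 9 integrin chains 2 were above 0, with a median of -0.31 (with TMM factors Itga5 was also above 0, at 0.03), and of 7 laminin chains 5 were, with a median of 0.12, beside a median of -0.16 and 35.0% above 0 over all genes. Set against Sham-NS, MI-DAPA had 1 of 16 at least 2-fold higher (Itgb6), beside 2.17%, and 0 lower, beside 1.94%. In nuclei thinned to 1000 UMIs 2 members were at least 2-fold higher for MI-NS against Sham-NS, and Itgb6 was at 0.94.

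The other laminin receptor of muscle is the dystroglycan and dystrophin complex. Of its 16 measurable genes 1 was at least 2-fold higher for MI-NS against Sham-NS, the laminin receptor Bcam, at 58.5 CPM in MI-DAPA, 84.3 in MI-NS and 40.3 in Sham-NS, and 0 were lower, beside 7.38% and 2.21% of all genes. Dag1, which encodes dystroglycan, was at 50.6, 54.1 and 67.5 CPM, and Dmd, which encodes dystrophin, at 6353, 4380 and 4080 CPM. The list's median of 0.08 lay beside 0.13 over all genes, and between MI-DAPA and MI-NS it was -0.14, beside -0.16. Agrn, the agrin that binds laminin and dystroglycan, was at 579 CPM in MI-DAPA, 425 in MI-NS and 617 in Sham-NS. Ccn1, a matricellular ligand of several integrins, was at 44.9, 124 and 21.4 CPM.

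**Figure D5:**
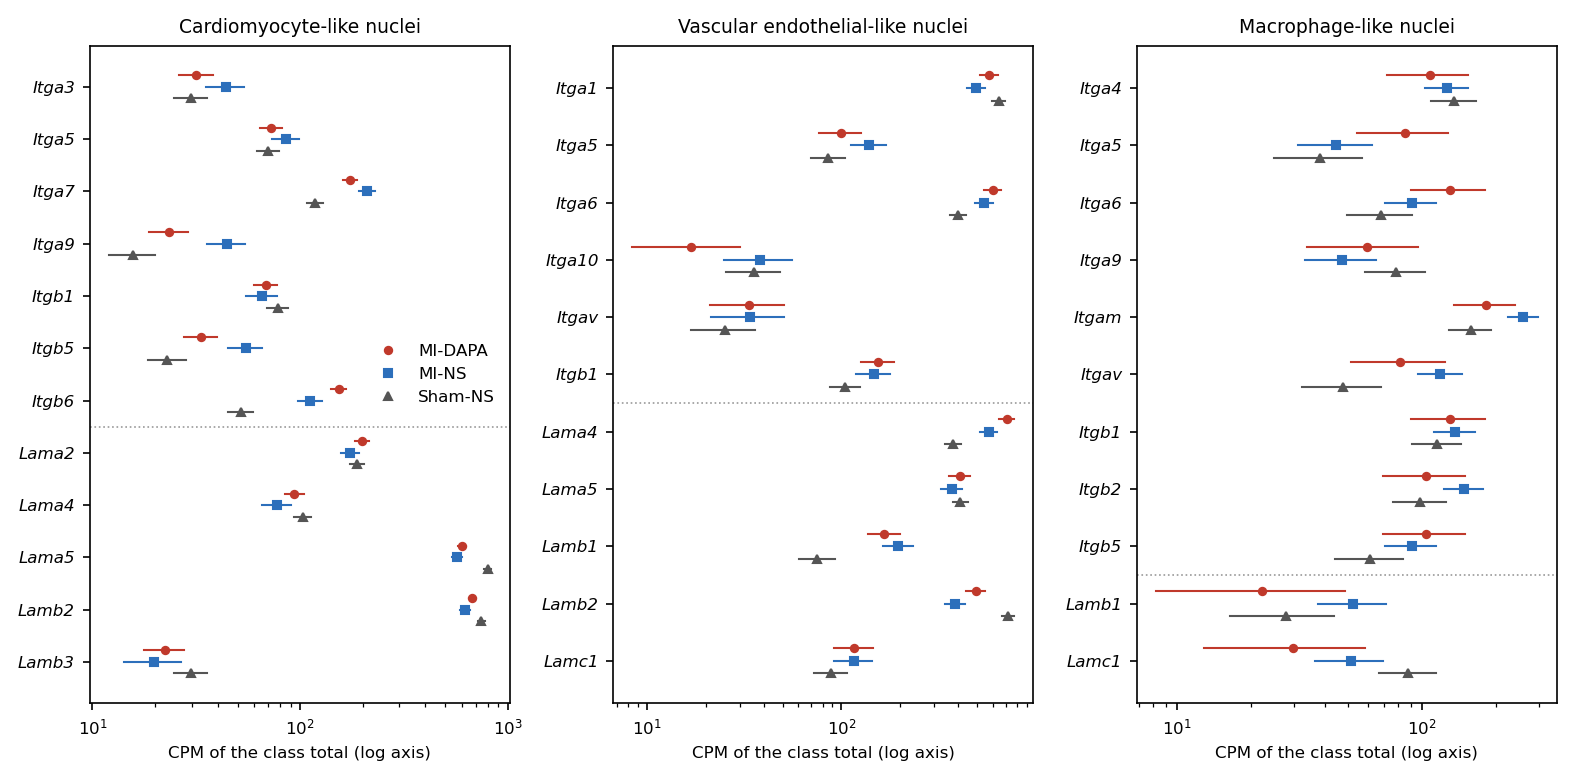
Level of the members in cardiomyocyte-, vascular endothelial- and macrophage-like nuclei (x axes: CPM of the class total, log axes; points: 1 library each; lines: exact Poisson 95% intervals; dotted line: between integrin and laminin chains). Itgb6 in cardiomyocyte-like nuclei is at 154 CPM in MI-DAPA, 112 CPM in MI-NS and 51.9 CPM in Sham-NS; Lamb1 and Lama4 in vascular endothelial-like nuclei and Itgav in macrophage-like nuclei lie lowest in Sham-NS.

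In vascular endothelial-like nuclei the laminin chains differed in direction. Lamb1 and Lama4 were higher in both infarcted libraries than in Sham-NS, and Lamb2 was lower. Itga6, the main laminin receptor chain of endothelium, was also higher. The class comprised 975, 945 and 1717 nuclei in MI-DAPA, MI-NS and Sham-NS. A finer clustering (resolution 2.0) split it into clusters of unlike make-up. Of these, a cluster led by Ift122, Kit and Prnd held 438, 441 and 104 nuclei, and one led by Car4 and Slc26a10 held 245, 157 and 948. The part of this in the class values was not tested.

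Lamb1 was at 167 CPM (137 to 201) in MI-DAPA, 196 (164 to 233) in MI-NS, against 75.3 (60.3 to 92.9) in Sham-NS, and the log2 ratio was 1.38 (0.98 to 1.79) for MI-NS against Sham-NS. Lamb2, which takes the same place in the trimer, was at 492 CPM (440 to 549), 385 (340 to 435) and 722 (674 to 773), a log2 ratio of -0.90 (-1.11 to -0.70). Lama4 was at 709 CPM (646 to 777), 574 (519 to 634) and 377 (342 to 414). For all of these Sham-NS lay apart from both infarcted libraries. With TMM factors Lamb2 was at -1.12, past 2-fold. Summed cardiomyocyte markers in these nuclei were at 5716 CPM in MI-DAPA, 3556 in MI-NS and 7062 in Sham-NS, in the same order as Lamb2, and fibroblast markers at 436, 1484 and 618 CPM; their part was not tested.

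Itga6 was at 601 CPM (543 to 663) in MI-DAPA, 544 (490 to 602) in MI-NS, against 398 (363 to 436) in Sham-NS. Itgb1 was at 154, 147 and 105 CPM and Itga5, the fibronectin receptor chain of growing vessels, at 99.3 (76.7 to 127), 139 (113 to 170) and 85.7 (69.7 to 104). Itga1 was lowest in MI-NS, at 576 CPM (519 to 637) in MI-DAPA, 495 (444 to 551) in MI-NS, against 645 (600 to 693) in Sham-NS. Lama5 was at 407, 371 and 410 CPM and Lamc1 at 116, 116 and 88.3 CPM, and for these the libraries overlapped.

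Itgb4, the partner of Itga6 in hemidesmosomes of epithelia, had 18, 25 and 7 UMIs, or 27.5 CPM (16.3 to 43.5) in MI-DAPA, 36.6 (23.7 to 54.1) in MI-NS, against 6.06 (2.44 to 12.5) in Sham-NS. Lama3, the alpha chain of an epithelial laminin that Itga6 and Itgb4 bind, was at 33.6, 23.4 and 21.6 CPM. Both had levels above those of the whole class in a small endothelial cluster led by Sema3g, Sox17 and Gja5, with 71, 90 and 139 nuclei. There Itgb4 was at 201 CPM (92.0 to 382), 116 (46.7 to 239) and 20.9 (2.53 to 75.6) and Lama3 at 268 (139 to 469), 133 (57.3 to 262) and 73.2 (29.4 to 151), against Lama3 levels of 16.4, 12.9 and 17.0 CPM in the large endothelial cluster. Sema3g, Sox17 and Gja5 are genes of arterial endothelium. Few UMIs stand behind the Itgb4 and Lama3 levels of this cluster, and in Sham-NS its Itgb4 interval overlapped that of the class. Itga6 was lower in that cluster, at 157, 216 and 293 CPM, than in the large cluster, at 633, 575 and 408 CPM.

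Of 13 measurable members 1 (Lamb1) was at least 2-fold higher for MI-NS against Sham-NS, beside 6.45% of all genes, and 0 were lower, beside 2.6%. Between MI-DAPA and MI-NS 0 of 9 were past 2-fold, beside 0.651% and 3.45%. For MI-DAPA against Sham-NS Lamb1 was at least 2-fold higher, at 1.14, beside 1.98% of genes, and Itga10 lower, at -1.03 from 11 and 41 UMIs, beside 1.99%. With a minimum of 10 UMIs 5 members were at least 2-fold higher for MI-NS against Sham-NS, and in nuclei thinned to 1000 UMIs 0 of 5. Of the basement membrane partners, 5 of 9 measurable genes were at least 2-fold higher and 0 lower for MI-NS against Sham-NS, and the median was 1.74 beside 0.10 over all genes. Col4a1, the main collagen IV chain, was at 851 CPM in MI-DAPA, 831 in MI-NS and 230 in Sham-NS, and Col15a1, which links basement membrane to fibrillar collagen, at 240, 337 and 42.4 CPM.

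Macrophage-like nuclei held the leukocyte integrins. Itgav stood at least 2-fold above Sham-NS in MI-NS, a call that ended in nuclei thinned to 1000 UMIs (log2 ratio 0.77) and with a minimum of 200 UMIs, which Itgav does not reach. Itgam, Itgb2 and Itgax had more CPM in MI-NS too. The class comprised 398 nuclei in MI-DAPA, 942 in MI-NS and 845 in Sham-NS, with totals that give low counts for most members. Itgam, the alpha chain of complement receptor 3, was at 182 CPM (135 to 241) in MI-DAPA, 260 (225 to 298) in MI-NS, against 159 (130 to 192) in Sham-NS, and its beta chain Itgb2 at 104 (69.1 to 150), 148 (123 to 178) and 98.6 (75.9 to 126). For Itgam MI-NS lay above Sham-NS without overlap, for Itgb2 the 2 libraries overlapped, and MI-DAPA overlapped both for each chain. Itgam overlaps a predicted protein-coding gene on the same strand, Gm49368.

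Itgav was at 81.8 CPM (51.2 to 124) in MI-DAPA, 119 (96.0 to 146) in MI-NS, against 47.8 (32.5 to 67.8) in Sham-NS, with a log2 ratio of 1.30 (0.72 to 1.95) for MI-NS against Sham-NS and -0.52 (-1.28 to 0.14) for MI-DAPA against MI-NS. Between MI-DAPA and MI-NS Itgav was -1.01 with the stricter filter on nuclei and -2.21 at resolution 2.0, both past 2-fold. Itgax, the alpha chain of complement receptor 4, had 16, 38 and 11 UMIs, or 59.5 CPM (34.0 to 96.6), 48.6 (34.4 to 66.7) and 16.9 (8.46 to 30.3). Itgal, the chain of LFA-1 that binds ICAMs, had 8, 30 and 7 UMIs. In both, Sham-NS had the fewest UMIs.

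Itga4, the receptor chain for Vcam1, was at 108, 127 and 136 CPM and Itga9 at 59.5, 47.3 and 78.6 CPM in MI-DAPA, MI-NS and Sham-NS, and the intervals of all libraries overlapped. Itga6 was at 130 CPM (90.6 to 181), 90.8 (70.9 to 115) and 67.8 (49.3 to 91.0), and Itga5 at 85.5 (54.2 to 128), 44.8 (31.2 to 62.3) and 38.5 (24.9 to 56.9). Both had their highest level in MI-DAPA, with intervals that overlapped MI-NS. Itga5 had a log2 ratio of 0.94 (0.11 to 1.73) for MI-DAPA against MI-NS.

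Of 16 measurable members 1 (Itgav) was at least 2-fold higher for MI-NS against Sham-NS, beside 5.65% of all genes, and 1 (Lama5, which the class did not hold) was lower, beside 2.15%. Between MI-DAPA and MI-NS 0 of 13 were past 2-fold, beside 0.998% and 4.69%. For MI-DAPA against Sham-NS Lamc1 was lower, at -1.49 (-2.84 to -0.49) from 8 and 57 UMIs, 1 of 13 beside 2.45%, and 0 were higher, beside 1.59%. Summed fibroblast markers in macrophage-like nuclei were at 1182 CPM in MI-DAPA, 2930 in MI-NS and 1753 in Sham-NS, all 11 with a UMI in each, and Col1a1 alone was at 134, 619 and 26.2 CPM. Their part in the macrophage-like values, the laminin chains and matrix ligands among them, was not tested.

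Pericyte-like nuclei, the cells around capillaries, had the highest Itga1 and Itga7 of the deep classes. Itga1 was at 1119 CPM (986 to 1265) in MI-DAPA, 945 (810 to 1096) in MI-NS, against 721 (634 to 817) in Sham-NS, and Itga7 at 682 (579 to 798), 967 (830 to 1119) and 657 (575 to 749). For Itga1 the infarcted libraries overlapped, and for Itga7 MI-NS lay above both others. Lama2 was at 795 CPM (684 to 920) in MI-DAPA, 556 (454 to 674) in MI-NS, against 524 (450 to 606) in Sham-NS, and Lama4 at 446 (364 to 541), 227 (163 to 307) and 262. Both Lama2 and Lama4 were highest in MI-DAPA, with log2 ratios of 0.51 (0.16 to 0.88) and 0.97 (0.44 to 1.53) for MI-DAPA against MI-NS. For MI-NS against Sham-NS 0 of 8 measurable members were past 2-fold, beside 3.49% higher and 4.78% lower, and for MI-DAPA against MI-NS 0 of 7, beside 2.64% and 2.01%. For MI-DAPA against Sham-NS it was 0 of 8, beside 1.15% and 1.72%.

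Smaller classes held further chains, with few UMIs. Vascular smooth muscle-like nuclei (46, 75 and 69) held Itga10 at 489 CPM (303 to 747) in MI-DAPA, 316 (208 to 460) in MI-NS, against 271 (155 to 440) in Sham-NS, and Itga8, a fibronectin receptor chain of contractile cells, in MI-NS alone, at 187 CPM (107 to 304). Lymphatic endothelial-like nuclei (61, 90 and 81) held Lama4 at 1095 CPM (845 to 1396), 779 (636 to 946) and 717 (549 to 921) and Itga9, which lymphatic valves need, at 168 (80.8 to 310), 115 (64.2 to 189) and 153 (81.4 to 261). Endocardial-like nuclei (81, 134 and 303) had Lamb1 at 40.3 CPM (8.31 to 118), 175 (117 to 251) and 63.2 (40.1 to 94.9), from 3, 29 and 23 UMIs. T cell-like nuclei (24, 99 and 47) held Itga4, Itgal and Itgb7 in MI-NS and Sham-NS; Itgal was at 377 CPM (262 to 524) in MI-NS, against 196 (94.2 to 361) in Sham-NS. B cell-like nuclei held Itgb7 at 333 CPM (200 to 519) in MI-NS, against 329 (170 to 574) in Sham-NS. Itga2b and Itgb3, the chains of the platelet fibrinogen receptor, were held in mesothelial-like nuclei of MI-NS only, at 47.9 and 35.6 CPM.

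Likely ligand and receptor pairs between classes were read from 44 pairs chosen with earlier results known: a pair was held where 1 class held the ligand and another, or the same, held each receptor chain. RNA alone was read, with no measure of protein, secretion or binding. The rule is relative to all nuclei of a library: vascular endothelial-like nuclei held Fn1 at 61.1 CPM in MI-DAPA but not at 226 CPM in MI-NS. Over all classes 27 pairs were held in MI-DAPA, 33 in MI-NS and 26 in Sham-NS. The MI-NS library holds the mesothelial- and adipocyte-like classes almost alone, and within the deepest 5 classes the counts were 27, 29 and 23. Of the 44 pairs, 23 were held in all libraries within those classes and 14 in none.

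Within the deepest 5 classes, pairs of Lama2, Lama4 and Lama5 with Itga6 or Itga7 and Itgb1 were held in every library. Of those classes, Lama2 was held by cardiomyocyte-, fibroblast- and pericyte-like nuclei, and its receptor chains Itga7 and Itgb1 by cardiomyocyte- and pericyte-like nuclei, in all 3 libraries. For this pair the fibroblast-like ligand level was 438 CPM in MI-NS and 844 CPM in Sham-NS, while Itga7 in cardiomyocyte-like nuclei was at 210 and 118 CPM. In MI-DAPA, Lama2 in fibroblast-like nuclei was at 849 CPM and Itga7 in cardiomyocyte-like nuclei at 174 CPM. With TMM factors the log2 ratio of this Itga7 level was -0.02 for MI-DAPA against MI-NS. Lama4 and Lama5 pairs with Itga6 and Itgb1 had vascular endothelial-like nuclei both as a source and as a receiver in each library, with pericyte- and macrophage-like nuclei as further receivers. Of the deep classes, Lama5 was held by cardiomyocyte- and vascular endothelial-like nuclei. Of the others, vascular smooth muscle-like nuclei held Lama5 in all libraries and endocardial-like nuclei in MI-DAPA and MI-NS. T cell-like nuclei held Lama5 in Sham-NS, where the part of free RNA was not tested. Among deep classes, the pair of Lama5 with Itga3 and Itgb1 was received by cardiomyocyte-like nuclei in all libraries, and in MI-NS also by vascular endothelial-like nuclei.

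Matrix pairs were held in all libraries for collagen I, periostin, vitronectin and TGF-beta. The pair of Col1a1 with Itga11 and Itgb1 had fibroblast-like nuclei as a source and as the only receiver of the deep classes in each library, with Col1a1 at 983 CPM in MI-DAPA, 1800 in MI-NS and 195 in Sham-NS. The pair of Col1a1 with Itga1 and Itgb1 was received by pericyte- and vascular endothelial-like nuclei in each library, and by fibroblast-like nuclei in MI-DAPA and MI-NS only, since Itga1 in Sham-NS fibroblast-like nuclei lay under 0.5 times the level of all nuclei. Postn with Itgav and Itgb5 was received by fibroblast-, macrophage- and pericyte-like nuclei in each library. Vtn, the vitronectin that pericytes make, was held by pericyte-like nuclei of the deep classes, at 498, 491 and 431 CPM, with the same receivers. Tgfb1 and Tgfb3 with Itgav and Itgb8 were received by fibroblast-like nuclei in each library. The pair of Tgfb1 with Itgav and Itgb6 was held nowhere, since cardiomyocyte-like nuclei did not hold Itgav.

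Within the deepest 5 classes 3 pairs were held in MI-DAPA and MI-NS but not in Sham-NS. These were Tnc with Itga9 and Itgb1, and Lama5 and Lama3 with Itga6 and Itgb4. For the tenascin pair, Tnc in fibroblast-like nuclei had 37 UMIs in MI-DAPA, 112 in MI-NS and 2 in Sham-NS, and Itga9 was held by cardiomyocyte-, fibroblast-, macrophage- and vascular endothelial-like nuclei of both infarcted libraries. For the others, Itgb4 in vascular endothelial-like nuclei stayed under the 10 UMIs asked for in Sham-NS. In MI-DAPA only, 1 further pair was held (Fn1 with Itga8 and Itgb1 in pericyte-like nuclei), and in MI-NS only 3 (Icam1 and Icam2 with Itgal and Itgb2, and Vcam1 with Itga4 and Itgb7, all received by macrophage-like nuclei). Itgal in macrophage-like nuclei of MI-DAPA was at 29.7 CPM from 8 UMIs, so that it was the number of UMIs that kept it out. Over all classes fewer of these pairs were particular to a library. Sham-NS then held both Itgb4 pairs, received by endocardial-like nuclei, and the Vcam1 pair, received by T cell-like nuclei. MI-NS then held Fn1 with Itga8 and Itgb1, received by vascular smooth muscle-like nuclei. The tenascin pair stayed with the infarcted libraries and the Icam1 and Icam2 pairs with MI-NS. Spp1, the osteopontin of wound macrophages, had 3, 9 and 0 UMIs in macrophage-like nuclei, and none of its pairs was held.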

How the data were processed

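Per the file headers, the authors deposited count matrices made with Cell Ranger 6.0.1: whole UMI counts per gene and barcode, each barcode with at least 500 UMIs. Per the submitters' processing notes the build was mm10 and Seurat was used. The annotation release, and whether intronic reads were counted, is not given in the sources used here. Another gene on the same strand overlaps 14 members, whose counts are uncertain to that extent.

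Nuclei with at least 300 genes and at most 10% mitochondrial UMIs were kept. Scrublet in scanpy 1.11.5 called 2, 1 and 0 doublets in MI-DAPA, MI-NS and Sham-NS, too few to have worked, so clusters with a median score over 0.1 were left out instead. Log counts of 2000 variable genes, less the 9 members among them, gave 30 principal components, 15 neighbours and 25 Leiden clusters (leidenalg 0.10.2, resolution 1.0), without batch correction. Clusters were named from 21 marker sets, with at least 3 markers 2-fold above other nuclei.

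Counts were added up within each library and class, then scaled to CPM, with exact Poisson intervals. Ratios had 0.5 UMI added, exact conditional binomial intervals and a minimum of 50 UMIs over both libraries; the steps were tested on simulated data. Alternatives were TMM factors (edgeR 4.0.16), minima of 10 and 200 UMIs, stricter nuclei, thinning, doublet scores, clustering and pair thresholds. Leaving out the Vcan-led cluster and reading pairs in the deepest classes only were chosen after seeing the data. A member was described in full where it had at least 50 UMIs and its class held it, or where it differed at least 2-fold beyond counting error; of each partner list and contrast, examples came from up to 4 held genes with the largest ratios, and ligands were named for their pairs. The members, lists and pairs were chosen with earlier results of these data known. Dag1, and Actn1 between the infarcted libraries, were named after their values were seen.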

Additional observations from a re-analysis of the deposited data

How the results depend on the processing

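No paired analysis was possible because each group had 1 library and there was no test. The median of all genes was not 0 on the total-UMI scale: for MI-NS against Sham-NS it was 0.12 in fibroblast-, 0.13 in cardiomyocyte-, 0.10 in vascular endothelial- and 0.06 in macrophage-like nuclei, and with TMM factors -0.00, -0.10, -0.12 and -0.06; for MI-DAPA against MI-NS in cardiomyocyte-like nuclei it was -0.16 and, with TMM, 0.10.

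Counts of members past 2-fold are small, so single members move them. For MI-NS against Sham-NS in fibroblast-like nuclei the 5 higher members became 3 with TMM, 8 with a minimum of 10 UMIs and 2 with thinning, and the 0 lower members became 1, 2 and, with classes set by markers, 1, or 3 without the Vcan-led cluster. For MI-DAPA against MI-NS there, 0 higher became 1 with TMM, thinning, classes set by markers or without the Vcan-led cluster, and 2 with 10 UMIs, and 0 lower became 2 with 10 UMIs and 1 with thinning. In cardiomyocyte-like nuclei 4 higher became 2 with 200 UMIs or thinning, and 0 lower became 1 with 10 UMIs; between MI-DAPA and MI-NS 0 lower became 3 with 10 UMIs, 2 with thinning and 1 with classes set by markers. In vascular endothelial-like nuclei 1 higher became 5 with 10 UMIs, 0 with thinning and 2 at resolution 2.0, and 0 lower became 1 with TMM; for MI-DAPA against MI-NS 0 lower became 2 with 10 UMIs and 1 at resolution 2.0. In macrophage-like nuclei 1 higher became 0 with 200 UMIs or thinning and 4 with 10 UMIs, and 1 lower became 0 with 200 UMIs, stricter nuclei or resolution 2.0, 3 without high doublet scores and 2 with classes set by markers; for MI-DAPA against MI-NS 0 lower became 3 with 10 UMIs and 2 with stricter nuclei.

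Of 92 ratios of single held members, 90 kept their sign with TMM, 80 with stricter nuclei, 78 with thinning and 87 with classes set by markers, and no ratio past 2-fold changed its sign. Thinning to 1000 UMIs left 11 measurable members in fibroblast-, 5 in vascular endothelial- and 3 in macrophage-like nuclei for MI-NS against Sham-NS. With 1 library for each group, differences between hearts cannot be told apart from differences between libraries.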
